A study of Rattus norvegicus with 90 samples.

Results

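The renal-only transcripts were 150 of the 40071 Ensembl rat transcripts measured in primary rat cells, selected on their own TPM values, as transcripts almost undetected in hepatocytes and cardiomyocytes and most abundant in untreated renal cells. A transcript qualified when its mean TPM (a length-corrected level in which all targets of a library sum to a fixed total) was below 0.5 in each of the 6 hepatocyte conditions and each of the 6 cardiomyocyte conditions. Of the 17174 that qualified, the 150 with the highest mean TPM in renal cells given vehicle for 9 h were kept. The choice therefore used the hepatocytes, the cardiomyocytes and the 5 renal vehicle libraries of 9 h, and these levels are given as a description with no test.

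The study exposed Sprague-Dawley rat cells to thioacetamide-S-oxide and measured polyadenylated RNA in 90 libraries, 5 for each of 18 conditions. Renal cells received vehicle (maintenance medium), a low dose of 0.125 mM or a high dose of 0.5 mM for 9 or 24 h, while hepatocytes received 0.025 and 0.125 mM and cardiomyocytes 0.5 and 1.5 mM for the same times. The renal cells were bought cryopreserved as proximal tubular epithelial cells and labelled renal tube epithelial cells. The sources do not say whether the 5 libraries of a condition came from separate animals or cell lots, so the p-values measure the spread between these libraries, which may be technical.

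Proximal tubular cells take back glucose, amino acids, phosphate and other small solutes from the filtrate and secrete organic anions and cations, and they rely on transporters and enzymes that few other cells make. In culture they lose part of this specialised programme. Thioacetamide-S-oxide is the first oxidised product of the liver and kidney toxicant thioacetamide, and a further oxidation gives the reactive form that binds proteins. The deposited files identify transcripts by Ensembl identifier and do not pair them with genes, and 0 of the 150 identifiers matched the rat gene tables used here. The transcripts are therefore described by identifier, level and response, and neither their functions nor the cells' marker genes could be examined.

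At 24 h of the high dose, 70 of the 150 renal-only transcripts were lower than in vehicle and 16 were higher, where 14.9% and 12% of all transcripts tested were. The summed level of the 150 was 67.8% of that in vehicle. Set against the low dose instead, the high dose was lower in 46 members and higher in 10 at 9 h, where 6.52% and 6.23% of all transcripts tested were. At 24 h it was lower in 61 and higher in 14, where 11.3% and 8.38% of all were. At the low dose against vehicle at 24 h, edgeR called 0 members with all libraries, and 1 lower and 1 higher without library MS-145. The loss was partial. The lowest mean among the 150 after 24 h of the high dose was 0.603 TPM, 2 members fell under 1 TPM and 0 fell under 0.5 TPM, the level that defined absence in the other cells.

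Before these results, a few libraries need mention. Renal libraries held 11415878 to 39153378 estimated counts (median 27551689), with 92.1 to 95.3% of them on annotated transcripts and the rest on genomic intervals. Library MS-145 (renal, low dose, 24 h) stood apart. Its summed TPM over the 150 was 1286, against 2584 to 2884 in the other 4 libraries of its condition. This was not particular to the renal-only transcripts, since their median level in MS-145 was 43.2% of the mean of the other 4 libraries and the median of 16498 other transcripts at 1 TPM or more was 41.7%. MS-145 was the lowest of the 5 libraries for 83.3% of the 150 and for 81.1% of the others. Results that use the low dose at 24 h are given with and without it. Hepatocyte vehicle library MS-183 (24 h), left out by the selection rule, had 8.33% of its counts on transcripts.

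In renal cells the 150 transcripts covered a wide range of levels. In vehicle at 9 h, 15 had a mean of at least 50 TPM and 75 at least 10 TPM, and the 10 most abundant made up 33.5% of the summed level. Even the most abundant ranked 847 among all transcripts in that condition, and the 150th ranked 12363. The choice had a narrow lower edge. ENSRNOT00000090709, the 150th, had a mean of 4.37 TPM and ENSRNOT00000076986, the first left out, 4.29 TPM. At the other edge, ENSRNOT00000075920 was included with a highest mean of 0.493 TPM outside the renal cells, and ENSRNOT00000065426 was not, at 0.506 TPM. In all, 434 qualifying transcripts were at 1 TPM or more.

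Outside the renal cells the levels were low in nearly all libraries. The highest mean of a member over the hepatocyte and cardiomyocyte conditions had a median of 0.186 TPM, was below 0.1 TPM for 44 members, and came from cardiomyocytes for 87 members and hepatocytes for 63. Only 5 members were at 0 in all 59 of these libraries, and 64 reached 0.5 TPM in at least 1 of them. The means over conditions thus hid single libraries with some signal. Cardiomyocyte library MS-159 (low dose, 9 h) had a summed TPM of 43.8 with 28 members at 0.5 TPM or more, while the other cardiomyocyte libraries lay between 5.48 and 15.0.

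The summed TPM per library shows the contrast on which the choice rested. Its condition means lay between 8.46 and 15.9 in hepatocytes without MS-183 and between 9.41 and 17.9 in cardiomyocytes. Renal vehicle at 9 h had a summed TPM of 2956 ± 41.9 (SD, n = 5). Vehicle at 24 h was close to it, with 2928 ± 85.4 (SD, n = 5) and libraries from 2843 to 3017.

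**Figure D1:**
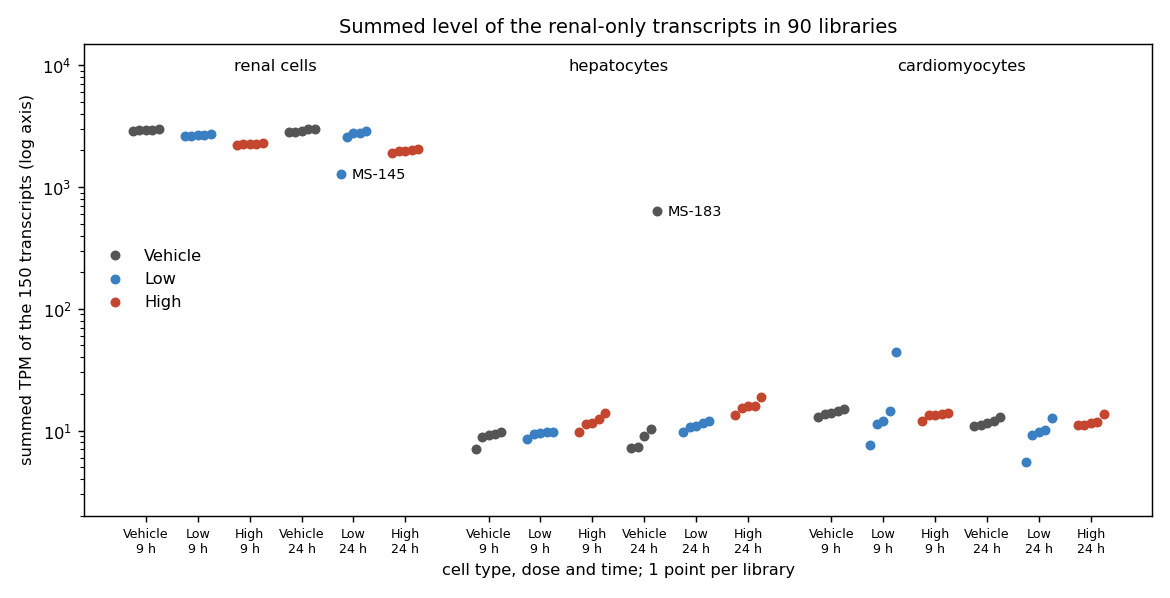
Summed TPM of the 150 renal-only transcripts on a log axis, with 1 point for each of the 90 libraries by cell type, dose and time. Renal libraries other than MS-145 lie between 1912 and 3024, the high dose below vehicle at both times, and the hepatocyte and cardiomyocyte libraries other than MS-183 lie at or below 43.8.

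With the high dose the summed TPM was 2262 ± 35.1 (SD, n = 5) at 9 h and 1987 ± 48.2 (SD, n = 5) at 24 h. At 24 h the high-dose libraries ranged from 1912 to 2038, below every vehicle library of that time. The low dose gave 2680 ± 29.0 (SD, n = 5) at 9 h, which was 90.7% of vehicle. At 24 h it gave 2457 ± 663 (SD, n = 5), or 2750 ± 124.1 (SD, n = 4) without MS-145, which was 93.9% of vehicle. In a bulk sample, fewer cells of a type and less RNA per cell cannot be told apart.

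The decrease at 24 h was spread over many members. From vehicle to high dose, 108 members had a lower mean TPM, adding up to 1253 TPM lost, and 42 had a higher mean, adding up to 312 TPM gained. The 10 largest decreases accounted for 48.97% of the loss. Without ENSRNOT00000018246, the most abundant member, the summed level at the high dose was 71.6% of vehicle in place of 67.8%.

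In features that the choice did not use, the 150 lay near other transcripts. Their median length was 1908 bases (80 to 15951), against 1974 bases in the 16498 other transcripts at 1 TPM or more in renal cells. Whole-number estimated counts in all 30 renal libraries (within 0.01 of a whole number), which occur where reads need not be shared among transcripts, were found for 69 members (46%) and for 41.0% of the others. The median coefficient of variation in vehicle at 9 h was 6.56% in the members and 6.26% in the others. At the high dose it was 8.50% and 6.999% at 9 h, and 13.0% and 12.5% at 24 h.

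A few members rested on very little RNA. In the comparison of the high dose with vehicle at 24 h, 8 of the 150 had too few counts to be tested. These 8 were 80 to 372 bases long (median 94), and their mean estimated count in vehicle at 24 h was at most 8.81. Short transcripts reach several TPM with few reads. Of these, 3 with identical TPM in all 90 libraries had a mean of 1.47 estimated counts at the high dose at 24 h. These 8 stay in the total of 150 and were counted as not called.

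The 5 most abundant members responded unequally. ENSRNOT00000018246 (2373 bases) measured 153.1, 159.2, 164.4, 169.1 and 174.1 TPM in vehicle at 9 h, and 233.5, 238.4, 247.3, 268.4 and 281.5 TPM in vehicle at 24 h. In the high dose at 24 h it measured 62.4, 66.7, 69.3, 78.4 and 80.1 TPM. All 5 high-dose libraries lay far below all 5 vehicle libraries of that time. The log2 fold change, from counts scaled by TMM (trimmed mean of M values, which aligns libraries on the bulk of their transcripts), was -1.89 (SE 0.11, adjusted p = 1.3e-07, edgeR, quasi-likelihood, p-values adjusted over all transcripts by Benjamini-Hochberg). At 9 h it was at 178.4 to 199.8 TPM with the low dose and 85.1 to 95.9 TPM with the high dose, again without overlap, a log2 fold change of -1.09 (SE 0.05, edgeR adjusted p = 1.4e-08). The low dose at 9 h was above all 5 vehicle libraries of 9 h and the high dose below them.

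ENSRNOT00000016419 (2917 bases) was steadier between times. It measured 122.8, 123.8, 139.7, 141.3 and 146.1 TPM in vehicle and 64.5, 71.7, 74.9, 76.8 and 83.1 TPM in the high dose at 24 h. The groups did not overlap, and the log2 fold change was -0.92 (SE 0.05, edgeR adjusted p = 1.3e-07). ENSRNOT00000028901 (5019 bases) measured 104.4, 104.4, 106.5, 111.1 and 115.5 TPM in vehicle and 72.7, 73.8, 73.8, 75.02 and 77.8 TPM in the high dose at 24 h, a log2 fold change of -0.60 (SE 0.03, edgeR adjusted p = 1.4e-07). Its decrease was separated from the vehicle spread but only just passed the fold threshold of 1.5.

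Neither of the remaining 2 abundant members passed both criteria at 24 h. ENSRNOT00000081032 (3828 bases) measured 69.0, 70.5, 74.6, 77.2 and 78.2 TPM in vehicle and 47.5, 57.8, 62.3, 62.3 and 69.2 TPM in the high dose, with a log2 fold change of -0.37 (SE 0.07, edgeR adjusted p = 9.8e-04) that was under the fold threshold. ENSRNOT00000092499 (3906 bases) ranged from 44.0 to 86.4 TPM in vehicle and from 16.9 to 58.3 TPM in the high dose, with a log2 fold change of -0.70 (SE 0.29, edgeR adjusted p = 0.062). Its estimated counts were not whole numbers, its libraries overlapped between groups, and MS-145 listed it at 0.

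The first tested question was what 24 h of the high dose did to the renal-only transcripts, in 10 libraries that had no part in their choice. The selection still bears on direction. Members had to be abundant in untreated renal cells at 9 h, so transcripts low there and raised by the dose could not be members. The transcripts tested as a whole were not chosen by level in vehicle. Here and in the later comparisons, the balance of lower and higher calls may in part follow from the selection, which was not tested. A transcript was called when its adjusted p was below 0.05 and its fold change at least 1.5. By that rule 70 of the 150 members were lower, where 14.9% of all 17798 transcripts tested were lower, and 16 were higher, where 12% of all were. The median log2 fold change of the members tested was -0.65, against 0.02 over all transcripts. The members' middle range of log2 fold changes ran from -1.22 to -0.02, and that of all transcripts from -0.38 to 0.37.

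The decreases were often large. Of the members, 47 were at 50% of vehicle or less and 9 were doubled or more, while over all transcripts 8.78% and 6.46% were. All 5 high-dose libraries lay below all 5 vehicle libraries for 80 members and above them for 22, where over all transcripts tested 21% and 20.7% did. The excess among the members was thus on the lower side. The share that rose was near that of all transcripts by calls and by doubling, and below it by libraries that did not overlap.

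**Figure D2:**
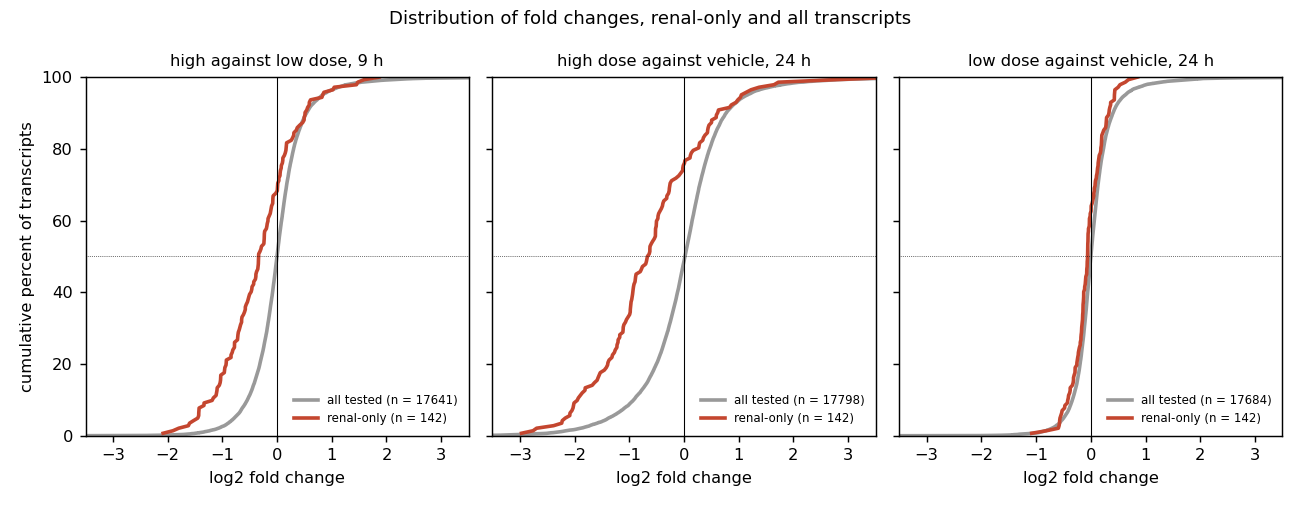
Cumulative percent of transcripts by log2 fold change, for the renal-only transcripts tested (red, all but 8 of the 150) and all transcripts tested (grey), in 3 comparisons. The red curve crosses 50% at -0.34 for high against low dose at 9 h, at -0.65 for high dose against vehicle at 24 h, and at -0.06 for low dose against vehicle at 24 h.

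The members called lower held most of the summed level. The 70 that were lower summed to 1892 TPM in vehicle and 788 TPM in the high dose at 24 h, and their median went from 14.3 to 4.67 TPM. The 16 that were higher summed to 143.99 and 384 TPM, with medians of 6.30 and 16.5 TPM. The 56 that were tested and not called summed to 841 and 762 TPM. The rises therefore replaced a minor part of the summed level that was lost.

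Members called lower were counted by level and length, beside all transcripts tested in the same range. Split by mean level over all 30 renal libraries, the lowest 50, middle 50 and highest 50 members held 24, 19 and 27 that were lower, where 17.2%, 13.8% and 11.5% of all transcripts of those levels were. Split by length, the shortest, middle and longest 50 held 19, 22 and 29, where 13.2%, 13.9% and 16.6% of all were. The 16 that were higher lay 1, 9 and 6 in these length classes, where 9.66%, 13.4% and 12.1% of all were. Members with whole-number counts in all renal libraries included 38 lower and 10 higher of 69, where 16.4% and 13.5% of all such transcripts were. The others included 32 lower and 6 higher of 81, where 13.9% and 11.1% were.

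The 2 named decreases were among the deepest. ENSRNOT00000015116 (3531 bases) measured 14.7, 14.7, 15.7, 15.9 and 17.0 TPM in vehicle and 1.84, 1.94, 1.99, 2.06 and 2.57 TPM in the high dose at 24 h, a log2 fold change of -2.97 (SE 0.08, edgeR adjusted p = 7.8e-10). ENSRNOT00000006238 (1769 bases) measured 6.79, 7.98, 8.01, 8.15 and 8.63 TPM in vehicle and 0.958, 1.14, 1.22, 1.28 and 1.48 TPM in the high dose, a log2 fold change of -2.76 (SE 0.12, edgeR adjusted p = 1.8e-08). In both, every high-dose library was far below the lowest vehicle library. The mean estimated counts behind the high-dose values were 150 and 42.6, so that the second is the less precise.

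The 2 named increases started from a low level. ENSRNOT00000016155 (1719 bases) measured 1.89, 2.03, 2.03, 2.42 and 2.62 TPM in vehicle and 31.6, 33.3, 34.5, 36.6 and 38.0 TPM in the high dose at 24 h, a log2 fold change of 3.91 (SE 0.08, edgeR adjusted p = 1.3e-10). ENSRNOT00000020230 (1659 bases) measured 4.67, 4.91, 5.87, 6.10 and 7.09 TPM in vehicle and 36.2, 39.6, 39.8, 43.7 and 45.6 TPM in the high dose, a log2 fold change of 2.77 (SE 0.09, edgeR adjusted p = 3.2e-09). Both groups of libraries were widely separated. Vehicle cells had less of each at 24 h than at 9 h (means of 2.20 against 4.98 TPM and 5.73 against 11.2 TPM), and the high-dose level at 24 h was above that of either vehicle time.

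**Figure D3:**
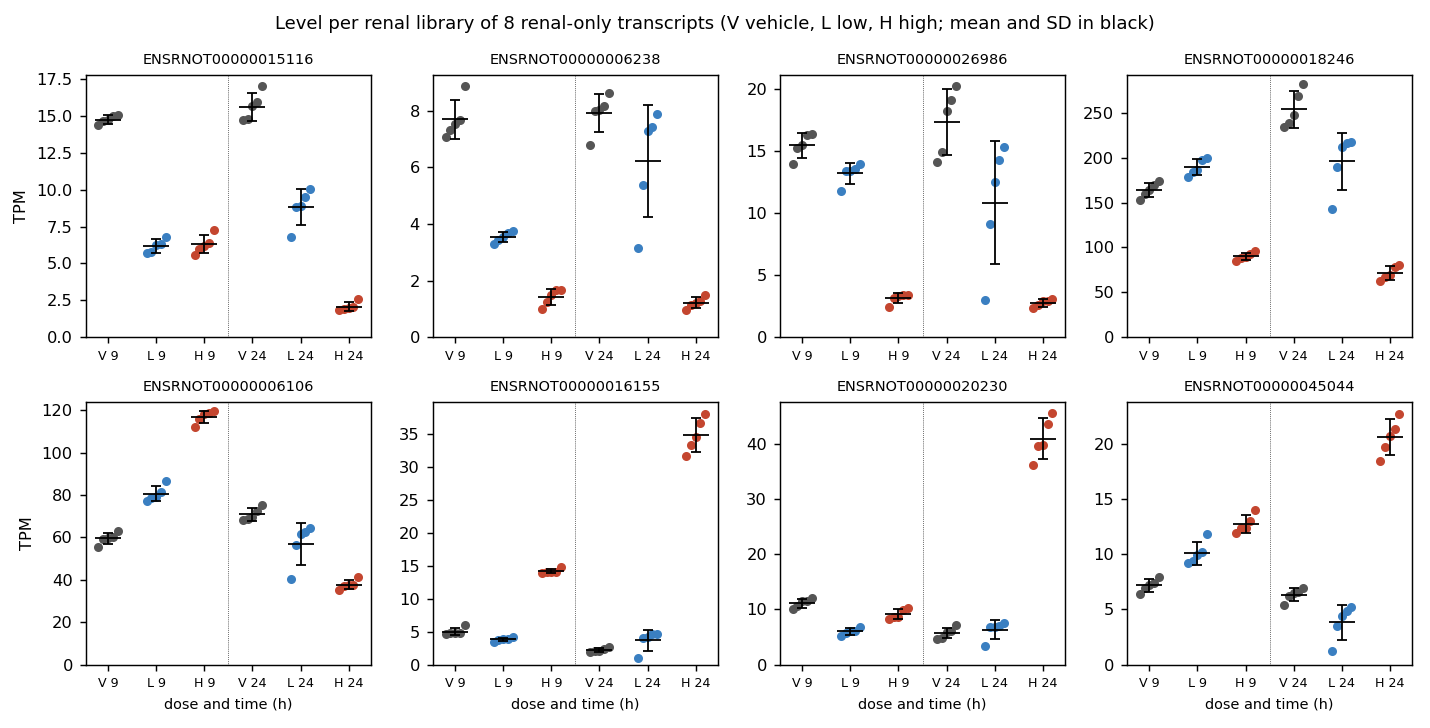
TPM of 8 renal-only transcripts in each of the 30 renal libraries (colored points), with the mean and SD of 5 libraries in black, by dose (V vehicle, L low, H high) and time in hours. ENSRNOT00000015116, ENSRNOT00000006238, ENSRNOT00000026986 and ENSRNOT00000018246 are lowest at the high dose at 24 h, while ENSRNOT00000016155, ENSRNOT00000020230 and ENSRNOT00000045044 are highest there, and ENSRNOT00000006106 is highest at the high dose at 9 h.

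The second question was whether the low dose acted at 24 h. By edgeR's test, 0 of the 150 members were lower and 0 were higher than vehicle, where 0.017% and 0.0452% of 17684 transcripts were. At an unadjusted p below 0.05 there were 23 members, and 1120 of all transcripts. DESeq2, a second count test, called 0 members lower and 3 higher. The median log2 fold change of the members was -0.06, against 0.00 over all. Without MS-145, 1 member was lower and 1 higher. On the log2(TPM + 1) scale, which does not correct for the low overall level of MS-145, the members' median was -0.27 and that of all transcripts -0.19. With all 6 renal groups in one fit, 1 member was lower and 3 were higher. The calls were thus few and moved with the tool and the libraries.

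ENSRNOT00000015116 shows that groups without overlap were not enough for a call. At the low dose at 24 h it measured 6.77, 8.82, 8.91, 9.53 and 10.04 TPM, all below the 5 vehicle libraries. Its log2 fold change of -0.57 (SE 0.14, edgeR adjusted p = 0.27) passed neither the adjusted p nor the fold threshold. Of the members, 9 lay entirely below vehicle in this comparison and 6 entirely above, where over all transcripts 2.48% and 1.84% did.

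Set against the low dose at the same time, the high dose at 24 h lowered 61 of the 150 members and raised 14, where 11.3% and 8.38% of 17941 transcripts tested were lower and higher. The median log2 fold change was -0.59 in the members and -0.01 over all. The high-dose libraries lay below all low-dose libraries for 54 members and above them for 17, where 13.3% and 14% of all transcripts did. Leaving out MS-145 gave 66 lower and 15 higher at a median of -0.63. On the log2(TPM + 1) scale the median of all transcripts moved to 0.25 and that of the members to -0.22, and 32 members were called lower, so that the difference between the members and all transcripts was kept and the count of calls was not. The named members here were the 4 of the comparison with vehicle, with log2 fold changes of -2.40 (SE 0.16, edgeR adjusted p = 4.2e-06) for ENSRNOT00000015116, -2.59 (SE 0.15, edgeR adjusted p = 1.3e-06) for ENSRNOT00000006238, 3.05 (SE 0.20, edgeR adjusted p = 3.7e-06) for ENSRNOT00000016155 and 2.44 (SE 0.08, edgeR adjusted p = 6.0e-08) for ENSRNOT00000020230.

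The order of the 3 group means at 24 h followed dose in many members. On the TMM-scaled log2(CPM + 0.5) scale (CPM, counts scaled to a fixed library total), 70 members had vehicle above low above high, against 22.8% of 19124 transcripts, and 14 had the reverse order, against 22.5%. Without MS-145 these counts were 77 and 20, against 24.96% and 28.2%. These are orders of means only. At 9 h, where vehicle is part of the selection, the first order held for 61 members and the reverse for 17, against 22.4% and 22.1% of all.

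At 9 h the test compared the high with the low dose, since vehicle had been used for the choice. The high dose was lower in 46 of the 150 members and higher in 10, where 6.52% and 6.23% of 17641 transcripts tested were. The median log2 fold change was -0.34 in the members and 0.00 over all. The 5 high-dose libraries lay below all 5 low-dose libraries for 62 members and above them for 25, where 17.3% and 18% of all transcripts did. The share of members that fell was thus well above that of all transcripts at the earlier time too, while the share that rose was near it.

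ENSRNOT00000026986 (2985 bases) gave the deepest of these decreases. It measured 11.7, 13.3, 13.4, 13.5 and 13.9 TPM in the low dose and 2.43, 3.14, 3.29, 3.42 and 3.44 TPM in the high dose at 9 h, a log2 fold change of -2.08 (SE 0.09, edgeR adjusted p = 1.6e-08). Its vehicle libraries at 9 h measured 13.9 to 16.3 TPM. At 24 h it stood at 14.1 to 20.2 TPM in vehicle and 2.33 to 3.09 TPM in the high dose, a log2 fold change of -2.69 (SE 0.10, edgeR adjusted p = 4.7e-09). Between 9 and 24 h of the high dose its log2 fold change was -0.17 (SE 0.11, edgeR adjusted p = 0.25), which did not pass the test.

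ENSRNOT00000092349 (2062 bases), the second named decrease, measured 2.85, 3.03, 3.36, 3.505 and 3.73 TPM in the low dose and 0, 0.911, 0.943, 1.25 and 1.32 TPM in the high dose at 9 h. The log2 fold change was -1.90 (SE 0.54, edgeR adjusted p = 0.014). It had a mean of 37.1 estimated counts in the high dose and its counts were not whole numbers, so reads were shared with other transcripts and its level is uncertain.

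Of the increases at 9 h, ENSRNOT00000016155 measured 3.44, 3.75, 3.81, 3.91 and 4.20 TPM in the low dose and 13.9, 14.03, 14.1, 14.1 and 14.8 TPM in the high dose, a log2 fold change of 1.87 (SE 0.06, edgeR adjusted p = 2.8e-09). Its rise was therefore present at 9 h and larger at 24 h. ENSRNOT00000090636 (1095 bases) measured 4.02, 4.45, 4.53, 5.03 and 5.93 TPM in the low dose and 11.2, 12.3, 14.4, 16.2 and 19.0 TPM in the high dose, a log2 fold change of 1.59 (SE 0.16, edgeR adjusted p = 1.1e-05). The call of the second was lost when all 6 renal groups shared one fit (adjusted p = 0.20), and at 24 h its vehicle libraries alone ranged from 0 to 10.6 TPM.

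The comparison of high with low dose at 9 h and that of high dose with vehicle at 24 h share no library. Of the 46 members lower at 9 h, 40 (87.0%) were also lower at 24 h, which was 57.1% of the 70 lower at 24 h. Over all transcripts, 71.9% of the 1150 lower at 9 h were lower at 24 h, which was 31.2% of the 2650 lower then. Of the 10 higher at 9 h, 5 (50%) were also higher at 24 h, which was 31.25% of the 16, and over all transcripts these shares were 60.3% and 30.9%. Of the members called at 9 h, 0 lower turned higher and 0 higher turned lower at 24 h, and over all transcripts 1 of 1150 and 26 of 1099 did.

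**Figure D4:**
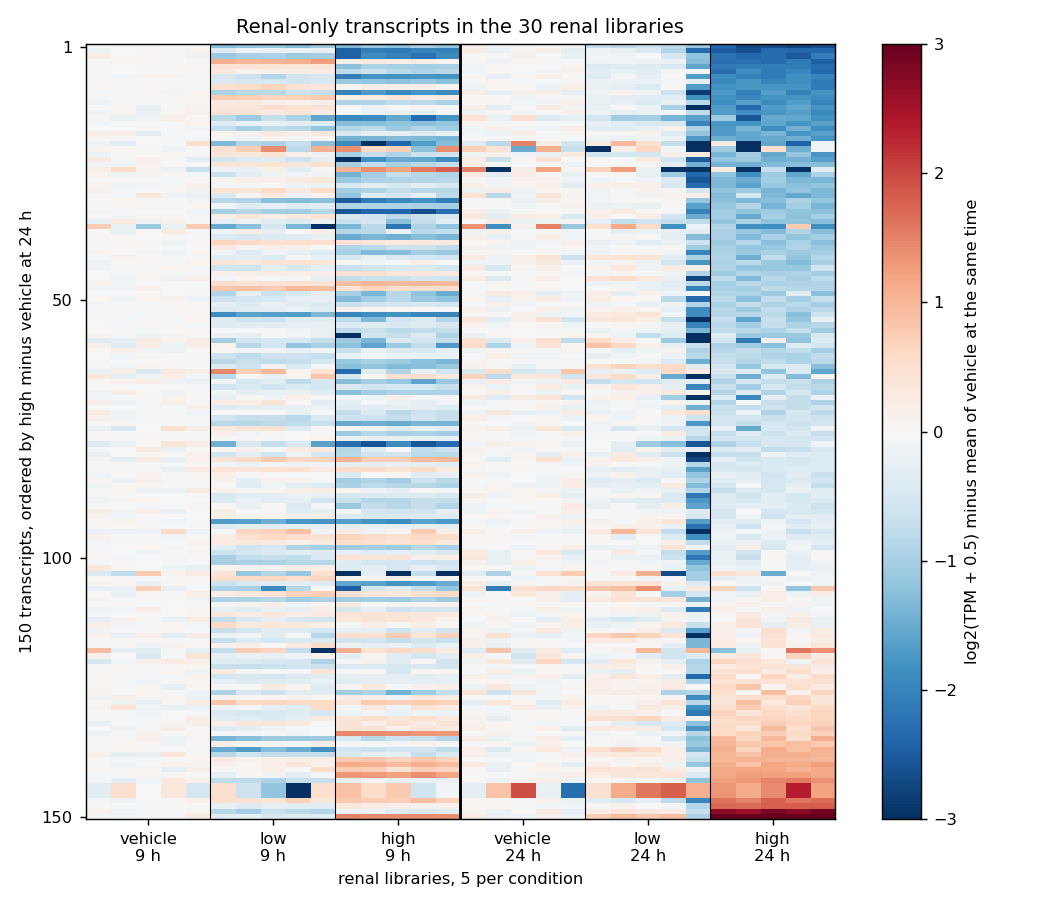
Log2(TPM + 0.5) of the 150 renal-only transcripts (rows, ordered by high dose minus vehicle at 24 h) in the 30 renal libraries (columns), less the mean of the 5 vehicle libraries of the same time, with blue lower and red higher. The high-dose columns are blue for most rows at 24 h, where 108 members had a lower mean TPM than vehicle, paler at 9 h, and the single dark column in the low dose at 24 h is MS-145.

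Against vehicle at 9 h the values are a description only, since these vehicle libraries chose the members. The high dose had a median log2 fold change of -0.48, with 65 members lower and 13 higher by at least 1.5 times, where 12.5% and 10% of all transcripts were. The low dose had a median of -0.16, with 28 lower and 8 higher, where 6.87% and 4.48% were. Nothing is read from these counts. Vehicle at 24 h had a median of -0.03 against vehicle at 9 h, with 29 lower and 22 higher, where 6.98% and 7.37% were.

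Between 9 and 24 h of the high dose, 29 of the 150 members fell and 10 rose, where 7.34% and 6.03% of 17941 transcripts tested did. The median log2 fold change was -0.19, against 0.00 over all. ENSRNOT00000006106 (1159 bases) had the clearest course. It measured 55.6, 58.99, 59.5, 60.3 and 63.1 TPM in vehicle, 77.3, 78.7, 79.2, 81.3 and 86.5 TPM in the low dose and 112.2, 115.7, 118.03, 118.6 and 119.4 TPM in the high dose at 9 h. At 24 h the high dose was lowest in place of highest, with 68.4 to 75.4 TPM in vehicle, 56.4 to 64.4 TPM in the low dose (40.2 TPM in MS-145) and 34.9, 37.2, 37.6, 37.7 and 41.2 TPM in the high dose. The transcript's log2 fold change from 9 to 24 h of the high dose was -1.62 (SE 0.06, edgeR adjusted p = 1.3e-08). For the high dose against vehicle at 24 h it was -0.97 (SE 0.07, edgeR adjusted p = 8.8e-07). For the low dose against vehicle at 24 h it was -0.08 (SE 0.12, edgeR adjusted p = 0.87), which did not pass.

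The other named decrease over time, ENSRNOT00000090636, went from 11.2 to 19.0 TPM at 9 h to 0, 0.00066, 1.86, 2.61 and 4.20 TPM at 24 h, a log2 fold change of -3.05 (SE 0.73, edgeR adjusted p = 0.0064). Its counts were not whole numbers and 2 high-dose libraries were at or near 0. Of the increases, ENSRNOT00000020230 went from 8.24, 8.69, 8.70, 9.95 and 10.3 TPM to 36.2 to 45.6 TPM, a log2 fold change of 2.17 (SE 0.07, edgeR adjusted p = 8.4e-09). ENSRNOT00000054937 (9192 bases) went from 0.962, 0.998, 1.28, 1.34 and 1.86 TPM to 2.94, 3.56, 4.17, 4.20 and 5.73 TPM, a log2 fold change of 1.69 (SE 0.21, edgeR adjusted p = 1.0e-04). This second increase followed a deep decrease at 9 h, and at 24 h it stayed under vehicle, with a log2 fold change of -0.62 (SE 0.16, edgeR adjusted p = 0.0060) and overlapping libraries.

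Between 9 and 24 h of the low dose, 2 of the 150 members fell and 6 rose, where 1.54% and 0.921% of 17584 transcripts tested did, and the median log2 fold change was 0.09 against 0.01 over all. Without MS-145 the counts were 4 and 8, while 2 rose without MS-127 and 3 rose without MS-126, MS-129 or MS-142. On the log2(TPM + 1) scale the median of the members was -0.18, that of all transcripts -0.22, and 0 members rose, so the direction of the members' median depends on the scaling.

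ENSRNOT00000045044 (1911 bases) fell from 9.21, 9.34, 9.88, 10.2 and 11.8 TPM to 1.24, 3.47, 4.38, 4.83 and 5.20 TPM, a log2 fold change of -1.23 (SE 0.17, edgeR adjusted p = 0.0026). The lowest value was MS-145, and the remaining 4 libraries were also below all those of 9 h. The same transcript was higher with the high dose than with vehicle at 24 h, at 18.4 to 22.7 against 5.37 to 6.93 TPM, a log2 fold change of 1.65 (SE 0.06, edgeR adjusted p = 9.7e-09). ENSRNOT00000024458 (2119 bases) fell from 5.70, 6.17, 6.30, 6.71 and 8.61 TPM to 1.21, 3.08, 3.94, 3.96 and 4.01 TPM, a log2 fold change of -0.87 (SE 0.15, edgeR adjusted p = 0.010). On the log2(TPM + 1) scale it lost its call (limma adjusted p = 0.11).

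ENSRNOT00000006238 rose over the same interval from 3.31, 3.42, 3.54, 3.67 and 3.76 TPM to 3.14, 5.38, 7.29, 7.42 and 7.88 TPM, a log2 fold change of 1.02 (SE 0.11, edgeR adjusted p = 7.1e-04), a call lost on the log2(TPM + 1) scale (limma adjusted p = 0.26). The lowest value at 24 h was again MS-145, whose TPM overlapped those of 9 h, and the remaining 4 libraries were above them. On TMM-scaled counts all 5 libraries of 24 h were above all 5 of 9 h. With the high dose the same member stayed at 1.01 to 1.67 TPM at 9 h and 0.958 to 1.48 TPM at 24 h, a log2 fold change of -0.21 (SE 0.18, edgeR adjusted p = 0.38). Vehicle at 24 h stood at 6.79 to 8.63 TPM, a range that 3 of the low-dose libraries reached and no high-dose library did. ENSRNOT00000003720 (2028 bases) rose from 3.80, 4.01, 4.09, 4.20 and 6.504 TPM to 5.45, 6.03, 7.21, 7.28 and 8.13 TPM, a log2 fold change of 0.89 (SE 0.20, edgeR adjusted p = 0.038), and lost its call without any 1 of 7 libraries.

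Whether the effect of dose changed with time was tested by the dose by time interaction, the difference between high and low dose at 24 h less that at 9 h. It was called lower for 26 of the 150 members and higher for 13, where 4.54% and 3.28% of 18798 transcripts tested were. The median was -0.22 in the members and -0.01 over all. An unadjusted p below 0.05 in this edgeR test was found for 64 members, with no share over all transcripts to set beside it. Without MS-145 the counts were 35 and 14. More members thus moved down than up between the times, relative to the low dose, as the plot of both dose differences shows.

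**Figure D5:**
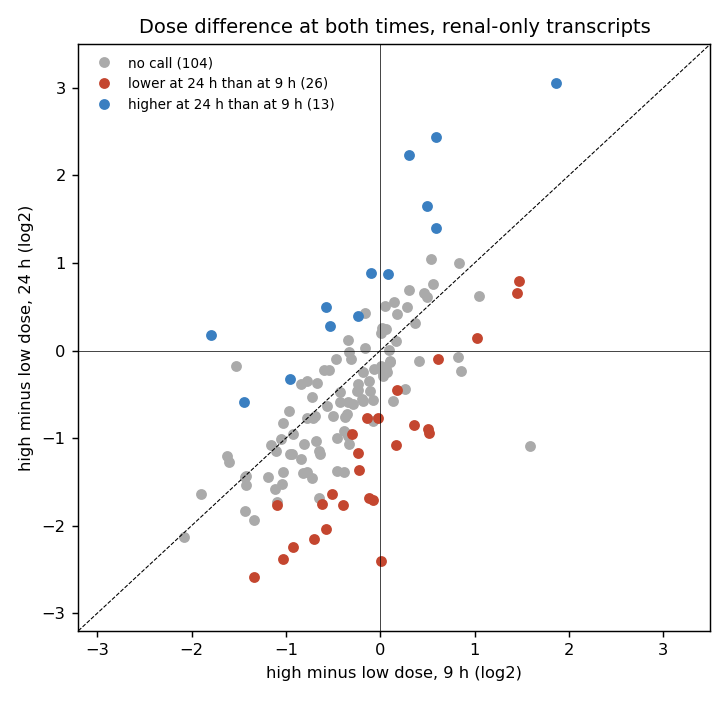
High minus low dose at 24 h against the same difference at 9 h (log2, TMM-scaled counts) for the renal-only transcripts. The dashed line marks equal differences. The interaction was tested for all but 7 of the 150. Of those tested, ENSRNOT00000071609 had no value for either difference and is not shown. The 26 red points lie below the line and the 13 blue points above it, by an interaction that passed the test, and ENSRNOT00000015116 is the red point at 0.01 and -2.40.

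ENSRNOT00000015116 had the most negative interaction among the members called, -2.37 (SE 0.17, edgeR adjusted p = 1.7e-08). At 9 h it measured 5.72, 5.79, 6.24, 6.35 and 6.81 TPM in the low dose and 5.602, 6.01, 6.21, 6.40 and 7.27 TPM in the high dose, while vehicle measured 14.4 to 15.1 TPM. The doses overlapped fully at 9 h (log2 fold change 0.01, SE 0.07, edgeR adjusted p = 0.95) and were fully separated at 24 h. Between the times the low dose rose by 0.80 (SE 0.14, edgeR adjusted p = 0.011) and the high dose fell by 1.59 (SE 0.10, edgeR adjusted p = 5.7e-07) on the log2 scale.

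ENSRNOT00000006106, the transcript whose high dose was highest at 9 h and lowest at 24 h, had an interaction of -1.38 (SE 0.13, edgeR adjusted p = 3.0e-07). Among positive interactions, ENSRNOT00000045044 had 1.94 (SE 0.17, edgeR adjusted p = 1.6e-07) and ENSRNOT00000020230 1.88 (SE 0.11, edgeR adjusted p = 1.2e-09). For ENSRNOT00000020230 the 5 high-dose libraries at 9 h (8.24 to 10.3 TPM) were above the 5 low-dose libraries (5.18 to 6.88 TPM) and those of vehicle, which were part of the selection, measured 10.02 to 12.1 TPM. ENSRNOT00000054937 had 1.996 (SE 0.50, edgeR adjusted p = 0.010), which reflects a high dose under the low dose at 9 h and overlapping doses at 24 h.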

How the data were processed

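RNA from primary rat renal cells, hepatocytes and cardiomyocytes had been sequenced as stranded, poly-A-enriched, paired-end libraries. The authors quantified reads with kallisto 0.42.4 on the Rnor_6.0 transcriptome, per the submitters' processing notes, and deposited per target an estimated count, a TPM value and lengths in bases. The files list 65166 targets, of which 25095 are genomic intervals. TPM served for choosing and describing members. Deposited estimated counts, rounded to whole numbers, were tested on all transcripts passing edgeR's filterByExpr, with TMM scaling and glmQLFTest (edgeR 4.0.16, R 4.3.3), each fit holding only the groups compared, and the interaction holding 4. A call needed a Benjamini-Hochberg adjusted p under 0.05 and a fold of the study's natural-log threshold of 0.41 (about 1.5 times). Alternatives used DESeq2 1.42.0 and limma 3.58.1. The tests were tested on simulated counts.

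The members, lists and tests were chosen with earlier results of these data known. Named transcripts were, per tested comparison, up to 2 with the largest increase and 2 with the largest decrease among members called, without overlap between groups and at 1 TPM or more in 1 group, plus the 5 most abundant in vehicle at 9 h and the neighbours of each selection threshold. Gene lists and cell type markers had been planned and were not used, since 0 member identifiers matched a gene name. Intervals and shared reads make counts estimates, and depths from 11415878 counts per renal library leave members of under about 10 counts untested.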

Additional observations from a re-analysis of the deposited data

Results flagged for a closer look

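In sets of 5 libraries, single libraries far from the other 4 were sought by Dixon's test for the summed level and the named transcripts. Of 108 sets, 13 were marked, where chance alone marks about 5.4, and 6 of the 13 were MS-145 (renal, low dose, 24 h). In MS-145 the summed TPM of the members was 1286, and single levels were 33.2 TPM for ENSRNOT00000016419, 61.1 TPM for ENSRNOT00000028901, 15.3 TPM for ENSRNOT00000081032, 0.925 TPM for ENSRNOT00000016155 and 3.32 TPM for ENSRNOT00000020230, each the lowest of its condition.

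The other 7 were spread over 6 libraries. ENSRNOT00000028901 was low in MS-135 (high dose, 9 h) at 98.4 TPM. ENSRNOT00000016155 was high in MS-131 (high dose, 9 h) at 14.8 TPM and in MS-125 (vehicle, 9 h) at 5.94 TPM. ENSRNOT00000026986 was low in MS-126 (low dose, 9 h) at 11.7 TPM. ENSRNOT00000003720 was high in MS-130 (low dose, 9 h) at 6.504 TPM and in MS-125 at 6.06 TPM, and low in MS-137 (vehicle, 24 h) at 4.07 TPM.

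The effect of dose differed between the times in the interaction test. The difference between high and low dose was lower at 24 h than at 9 h for 26 members and higher for 13, where 4.54% and 3.28% of all transcripts tested were.

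Hepatocyte vehicle library MS-183 (24 h), which the selection left out, had a summed TPM of 637 over the renal-only transcripts, where the other 4 libraries of its condition had 7.23 to 10.2. In MS-183, 55 members were above 0 and 52 reached 0.5 TPM. It held 809 estimated counts of the members, and 8.33% of its counts fell on transcripts. The part of its low transcript share in this value was not tested.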

How the results depend on the processing

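The counts here show only how the members' calls moved with the settings. The shares of called transcripts given above belong to the main settings, and none is given for the alternatives. All medians kept their sign under the alternatives run except that of the low dose between 9 and 24 h, which was -0.18 on log2(TPM + 1) in place of 0.09. For the high dose against vehicle at 24 h, a fold of at least 2 left 46 lower and 9 higher. The share of members called lower was 46.7%, and 38 to 55.1% with the 100 or 300 most abundant qualifying transcripts, other limits outside renal cells, MS-183 kept, or whole-number counts alone (chosen after seeing the data). Its median was -0.68 with upper-quartile scaling, -0.56 on log2(TPM + 1) and -0.71 with intervals in the fit. For the low against vehicle at 24 h, DESeq2 called 3 higher, all 6 renal groups in one fit gave 1 lower and 3 higher, leaving out both MS-137 and MS-145 (chosen after seeing the data) gave 1 and 2, and the log2(TPM + 1) median was -0.27. For high against low at 24 h, limma's medians were -0.51 on log2(CPM + 0.5) and -0.22 on log2(TPM + 1), the latter with 32 lower, and a fold of at least 2 left 6 higher.

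For high against low at 9 h, no fold threshold gave 73 lower and 28 higher, a fold of at least 2 gave 23 and 6, and the log2(TPM + 1) median was -0.27. For the high dose between times, no fold threshold gave 55 and 35, a fold of at least 2 gave 13 and 5, and the medians were -0.22 with upper-quartile scaling and -0.15 on both limma scales. For the low dose between times, DESeq2 gave 4 lower, the light filter 3 higher, log2(TPM + 1) 0 higher, one fit of all 6 groups 4 and 15, no fold threshold 5 and 10, and a fold of at least 2 1 and 1. From counts in place of TPM, the summed level at the high dose was 65.6% of vehicle at 24 h and 73.9% at 9 h. From TPM, the low dose at 24 h was 83.9% of vehicle with all libraries and 93.9% without MS-145. The cause of these shifts was not tested, apart from those that the thresholds and member lists set themselves.

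Leaving out each library in turn gave 68 to 73 lower and 14 to 17 higher for high dose against vehicle at 24 h (median -0.68 to -0.63), 0 to 1 lower and 0 to 1 higher for low dose against vehicle (1 only without MS-145), 55 to 66 and 13 to 15 for high against low at 24 h (median -0.63 to -0.57), 44 to 47 and 9 to 12 at 9 h, 27 to 33 and 9 to 13 for the high dose between times, 24 to 35 and 10 to 14 for the interaction, and 2 to 4 and 2 to 8 for the low dose between times. There, the higher calls were 3 without MS-126, MS-129 or MS-142, 2 without MS-127 and 4 without MS-128, MS-143 or MS-144. Of 340 pairs of a named transcript and an alternative, 328 kept direction and call, 12 lost the call and 0 reversed. Depth limits the 8 untested short members and those with few counts. No paired analysis was possible because the library numbers are unique to each library.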
